A study of Homo sapiens with 3 samples.

Results

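The MTRNR2L genes, or MT-RNR2-like genes, are nuclear copies of the mitochondrial 16S ribosomal RNA gene, and 10 of them were followed by RefSeq identifier, MTRNR2L1 to MTRNR2L10. Of these 10 members, 9 had a value in the deposited lists, among 25443 transcripts with a value in at least 1 sample, and MTRNR2L7 (NM_001190489) had no read in any sample. The samples were HEK293 cells, a human embryonic kidney line that the paper names HEK293T, kept for 48 h in normal medium (the negative control), in medium with 1 mM DMSO, or in medium with 1 µM BDE-209 (decabromodiphenyl ether, a flame retardant) and 1 mM DMSO. Each condition was 1 sample of the same line, so differences have no replicate check, no test was made, and the variation between cultures is unknown. The members were chosen by identifier with their RPKM values in these samples already known, and their levels and ratios are therefore given as a description.

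The mitochondrial 16S rRNA is the RNA core of the large subunit of the mitochondrial ribosome, and it is among the most abundant RNAs of a cell. Humanin is a short peptide read from a small frame inside this rRNA gene and is known for protecting cells from death. It has been described to bind BAX, the apoptosis effector, and IGFBP3, an insulin-like growth factor carrier, and to signal through FPR2 and a receptor made of CNTFR, IL27RA and IL6ST. During evolution, pieces of mitochondrial DNA were copied into the nuclear chromosomes, and the MTRNR2L genes are such pieces that keep a humanin-like frame. Reads as short as 49 bases can match both the mitochondrial gene and its nuclear copies.

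The humanin-like frames are shown first because they are what the members share with humanin and show how near each copy still is to the mitochondrial gene. Those of MTRNR2L5 and MTRNR2L7 are not printed but are part of the counts below. All sequences were read from GRCh37, whose nuclear chromosomes are those of hg19. They are written 5′ to 3′ on the strand of the gene, and capitals mark the bases that differ from the mitochondrial frame in an alignment.
MT-RNR2, chrM:2633-2707, plus strand: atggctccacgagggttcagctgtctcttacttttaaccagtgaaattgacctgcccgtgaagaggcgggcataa
MTRNR2L2, chr5:79945833-79945905, minus strand: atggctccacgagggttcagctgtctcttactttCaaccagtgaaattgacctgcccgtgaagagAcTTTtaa
MTRNR2L8, chr11:10529699-10529773, minus strand: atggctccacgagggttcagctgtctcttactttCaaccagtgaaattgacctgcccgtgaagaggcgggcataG
MTRNR2L1, chr17:22023388-22023462, plus strand: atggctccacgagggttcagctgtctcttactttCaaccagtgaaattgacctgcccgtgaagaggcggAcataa
MTRNR2L9, chr6:62284233-62284307, plus strand: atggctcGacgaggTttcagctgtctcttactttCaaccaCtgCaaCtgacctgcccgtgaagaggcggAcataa
MTRNR2L6, chr7:142375063-142375137, plus strand: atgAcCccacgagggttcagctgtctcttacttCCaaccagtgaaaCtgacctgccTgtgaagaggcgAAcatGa
MTRNR2L10, chrX:55208353-55208427, minus strand: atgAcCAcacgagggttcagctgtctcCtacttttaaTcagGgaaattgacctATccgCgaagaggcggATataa
MTRNR2L3, chr20:55934021-55934095, minus strand: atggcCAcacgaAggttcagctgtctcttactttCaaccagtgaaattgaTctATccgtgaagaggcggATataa
MTRNR2L4, chr16:3421829-3421902, minus strand: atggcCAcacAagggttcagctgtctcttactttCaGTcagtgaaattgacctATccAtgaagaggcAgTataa
Over the 75 bases of the frame, MTRNR2L1 and MTRNR2L8 differed from the mitochondrial gene at 2 bases each. MTRNR2L9 differed at 7, MTRNR2L3, MTRNR2L5 and MTRNR2L6 at 9, MTRNR2L4 and MTRNR2L10 at 11 and MTRNR2L7 at 12. MTRNR2L2 differed at 5 aligned bases and lacked 2, all but 1 of the differing bases at the end of the frame, where its likeness to the 16S rRNA ends. The frame began with ATG in all 10 copies, and in 8 of them the first stop codon of the standard code was codon 25, the last of the frame. In MTRNR2L2 and MTRNR2L4 the aligned stretch is shorter by 2 and 1 bases, so that its last 3 bases are out of frame.

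Whole copies were compared with the 16S rRNA next (MT-RNR2, chrM:1671-3229, 1559 bases). MTRNR2L2 (chr5:79945841-79946866) was 94.5% identical and copies the first 1027 bases of the rRNA. MTRNR2L8 (chr11:10529434-10530735) was 93.0% identical over the first 1302 bases and lies between AMPD3 and RNF141 in no annotated gene. MTRNR2L9 (chr6:62284008-62284534), the shortest copy with 527 bases, was 90.7% identical and also lies outside annotated genes. MTRNR2L1 (chr17:22022425-22023984) was a full-length copy with 88.4% identity, and an exon of a long non-coding RNA on the other strand overlaps it. MTRNR2L6 (chr7:142374131-142375525), between PRSS58 and PRSS1, had 84.9%, and MTRNR2L10 (chrX:55207830-55209323), between PAGE2 and PAGE5, had 80.4%. The remaining copies were 78.7 to 79.4% identical. They are MTRNR2L3 (chr20:55933503-55935041) in an intron of RAE1, MTRNR2L4 (chr16:3421032-3422332) in an intron of a gene without a symbol, MTRNR2L5 (chr10:57358750-57360493) in an intron of PCDH15 and MTRNR2L7 (chr10:37890373-37891902) between ANKRD30A and ZNF248, the first 3 of them on the strand opposite to the gene that holds them. GENCODE 44, lifted to GRCh37, annotates MTRNR2L1, MTRNR2L3, MTRNR2L6 and MTRNR2L10 as protein-coding genes of a single exon.

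Levels of the members spanned several orders of magnitude, and the order was the same in all 3 samples except at its lower end. MTRNR2L2 (NM_001190470) was the most abundant transcript of every list. It had 5182 RPKM (read count divided by transcript length and by a total of reads of the sample) in the negative control, 5018 in DMSO and 5296 in BDE-209, from 26003, 24859 and 25660 reads. MTRNR2L8 (NM_001190702) held rank 3 in every list, with 3266, 3151 and 3308 RPKM in the same order of samples. For both, the DMSO sample was the lowest and the BDE-209 sample the highest, and the highest value was 1.06 and 1.05 times the lowest. Read numbers were recovered from the steps of the RPKM values, as described under the processing, and those of MTRNR2L8 (20405, 19440 and 19955) rest on a length of 1290 bases, since its values alone also fit 3888 to 4081 reads on 258 bases.

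**Figure D1:**
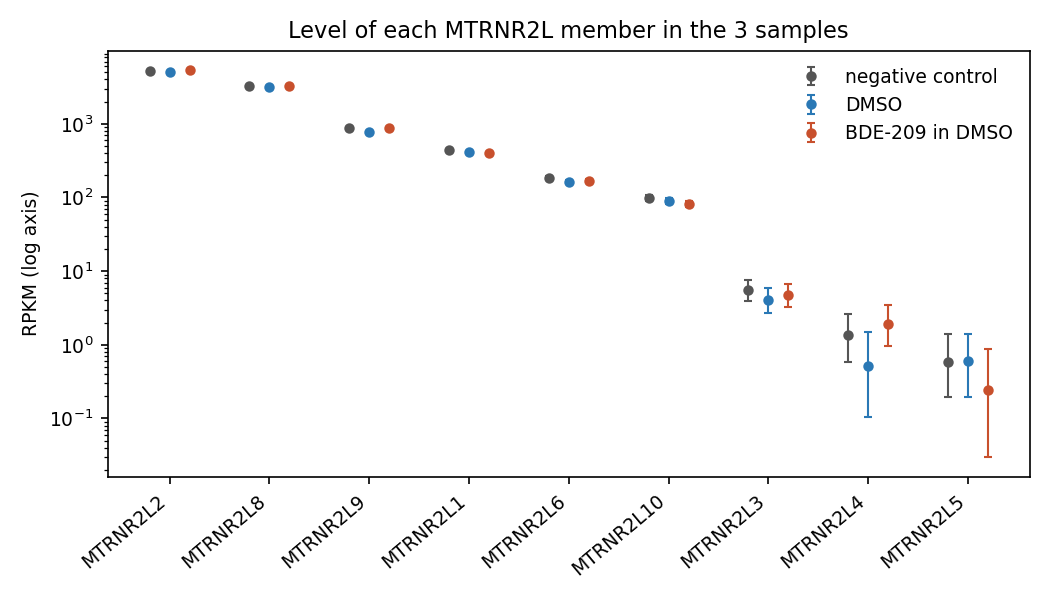
RPKM of each MTRNR2L member (log axis) in the negative control, the DMSO sample and the BDE-209 sample, 1 point per sample, with exact Poisson 95% intervals of the recovered reads as bars. The points of a member lie close together, from 5018 to 5296 RPKM for MTRNR2L2, while members differ by orders of magnitude, down to 0.2459 to 0.6013 RPKM for MTRNR2L5; MTRNR2L7, with no read, is not drawn.

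MTRNR2L9 (NM_001190706) had 879.9 RPKM in the negative control, 775 in DMSO and 871.1 in BDE-209. MTRNR2L1 (NM_001190452) had 436.7, 409.8 and 406.2 RPKM, highest in the negative control. MTRNR2L6 (NM_001190487) had 183.7, 163.5 and 166.6 RPKM, and MTRNR2L10 (NM_001190708), the only member on a sex chromosome, had 98.9, 90.66 and 81.64. In all of these members the negative control was the highest sample. Exact Poisson 95% intervals, which cover counting error only, did not overlap between neighbours in the order from MTRNR2L2 down to MTRNR2L10 in any sample. The interval of MTRNR2L6 reached down to 154 RPKM in DMSO, for example, and that of MTRNR2L10 up to 99.1. The intervals of MTRNR2L3 lay below those of MTRNR2L10 in every sample.

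The other members were near the limit of this depth. MTRNR2L3 (NM_001190472) had 37 reads in the negative control, 27 in DMSO and 31 in BDE-209, or 5.523, 4.083 and 4.793 RPKM. MTRNR2L4 (NM_001190476) had 8, 3 and 11 reads, or 1.342, 0.5096 and 1.911 RPKM, and MTRNR2L5 (NM_001190478) had 5, 5 and 2 reads, or 0.5936, 0.6013 and 0.2459 RPKM. The intervals of MTRNR2L3 and MTRNR2L4 overlapped in BDE-209 (3.26 to 6.8 against 0.954 to 3.42 RPKM) and not in the other samples. Those of MTRNR2L4 and MTRNR2L5 overlapped in the negative control (0.579 to 2.64 against 0.193 to 1.39 RPKM) and in DMSO, where MTRNR2L5 had the larger value. In BDE-209 the interval of MTRNR2L4 started at 0.954 RPKM and that of MTRNR2L5 ended at 0.888. For MTRNR2L7, with 0 reads, a chosen floor of 3 reads on the 1530 bases of its locus was used. This floor lay at 0.405 RPKM in the negative control, 0.41 in DMSO and 0.419 in BDE-209, and it is no Poisson limit. The intervals of MTRNR2L5 reached below it in every sample, so the level of MTRNR2L7 was not told apart from that of MTRNR2L5.

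Summed over the members, the family took up 1.88% of all RPKM in the negative control, 1.81% in DMSO and 1.93% in BDE-209, that is 10054, 9613 and 10136 RPKM. In reads, these were 53771, 50911 and 52275, or 1.11%, 1.06% and 1.12% of the recovered totals of 4843624, 4782044 and 4676793. These totals are the divisors that the RPKM values imply, are lower than the numbers of mapped reads that the study lists, and which reads they leave out is not stated. MTRNR2L2 and MTRNR2L8 together made up 84.0%, 85.0% and 84.9% of the family's RPKM. RNF141, beside MTRNR2L8, had 10.8, 11.3 and 12.2 RPKM, and AMPD3, on the other side, 1 value of 0.0478 in BDE-209 and none in the other samples. RAE1, which holds MTRNR2L3 on the opposite strand, had 80.0, 63.5 and 73.2 RPKM summed over its transcripts. The values of MTRNR2L3 were likewise highest in the negative control and lowest in DMSO. The ratio intervals of MTRNR2L3 included 0 in every comparison, so its order of samples is not settled. No transcript of PCDH15 was listed. All of these genes were looked up after the members' values were seen.

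The order of the levels followed the likeness to the mitochondrial gene. By identity the first 6 members were MTRNR2L2, MTRNR2L8, MTRNR2L9, MTRNR2L1, MTRNR2L6 and MTRNR2L10, and their mean RPKM over the 3 samples fell in exactly this order, from 5165 to 90.4. Across the 10 members, Spearman's rho between identity and mean RPKM was 0.93. It was 0.862 without MTRNR2L2 and MTRNR2L8. All members were compared with the same rRNA and measured in the same libraries, so they are no independent points, and the value is a description.

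Likeness was also counted at the scale of a read. Every stretch of 49 bases (the read length) of each locus was placed on the whole GRCh37 assembly with up to 2 mismatches, the limit of the authors' alignment. Of the windows of MTRNR2L2, 54.8% had a place on the mitochondrial chromosome within this limit. The share was 40.4% for MTRNR2L8, 34.0% for MTRNR2L9, 17.6% for MTRNR2L1, 7.72% for MTRNR2L6 and 7.54% for MTRNR2L10. It fell to 3.35% for MTRNR2L3, 1.52% for MTRNR2L4, 0.135% for MTRNR2L7 and 0 for MTRNR2L5. This order was that of the mean RPKM values, apart from MTRNR2L5 and MTRNR2L7 at its end (Spearman's rho 0.988 over 10 members, and 0.976 without MTRNR2L2 and MTRNR2L8).

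**Figure D2:**
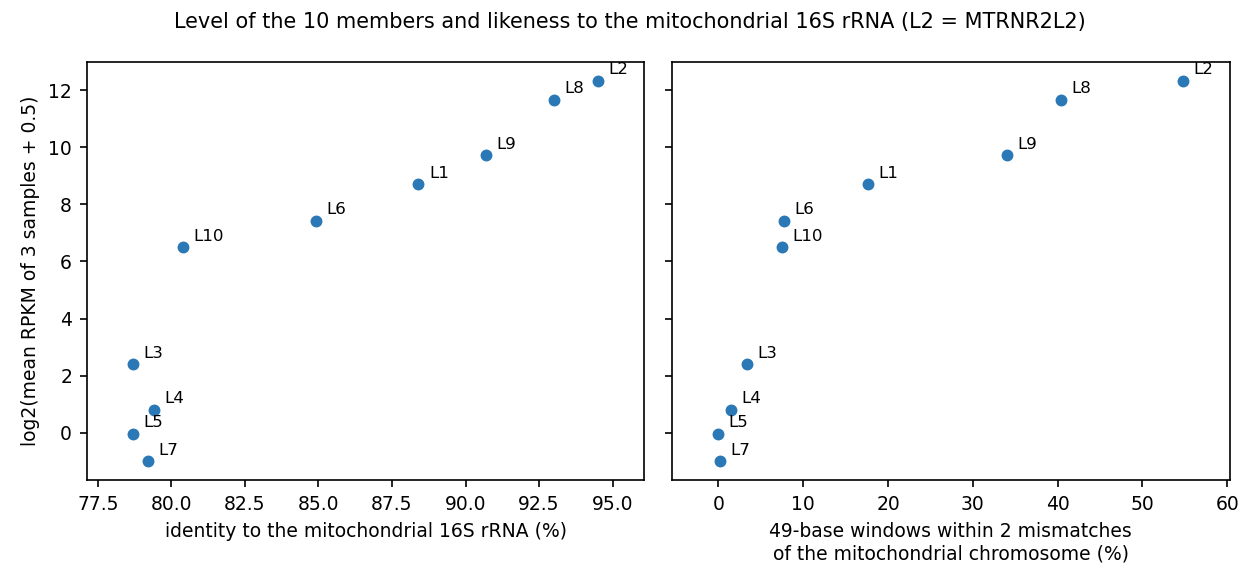
Mean level of each of the 10 members as log2(RPKM + 0.5), averaged as RPKM over the 3 samples, against its identity to the mitochondrial 16S rRNA (left, percent) and against the percentage of its 49-base windows with a place on the mitochondrial chromosome within 2 mismatches (right); 1 point per member. MTRNR2L2, at 5165 RPKM, is highest on every axis (94.5% identity, 54.8% of windows), and the 4 members under 5 RPKM lie at 78.7 to 79.4% identity.

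Windows that match the mitochondrial chromosome exactly set the members apart as well. MTRNR2L8 had 116 such windows, MTRNR2L2 had 77, MTRNR2L9 had 29, MTRNR2L10 had 14, MTRNR2L1 had 12 and MTRNR2L6 had 7. These 6 members had between 81.64 and 5296 RPKM in every sample. The 4 members without an exact window, MTRNR2L3, MTRNR2L4, MTRNR2L5 and MTRNR2L7, had at most 5.523 RPKM. MTRNR2L10 had an identity (80.4%) close to the 79.2% of MTRNR2L7, but around base 1251 of the rRNA it holds a short run without any difference.

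**Figure D3:**
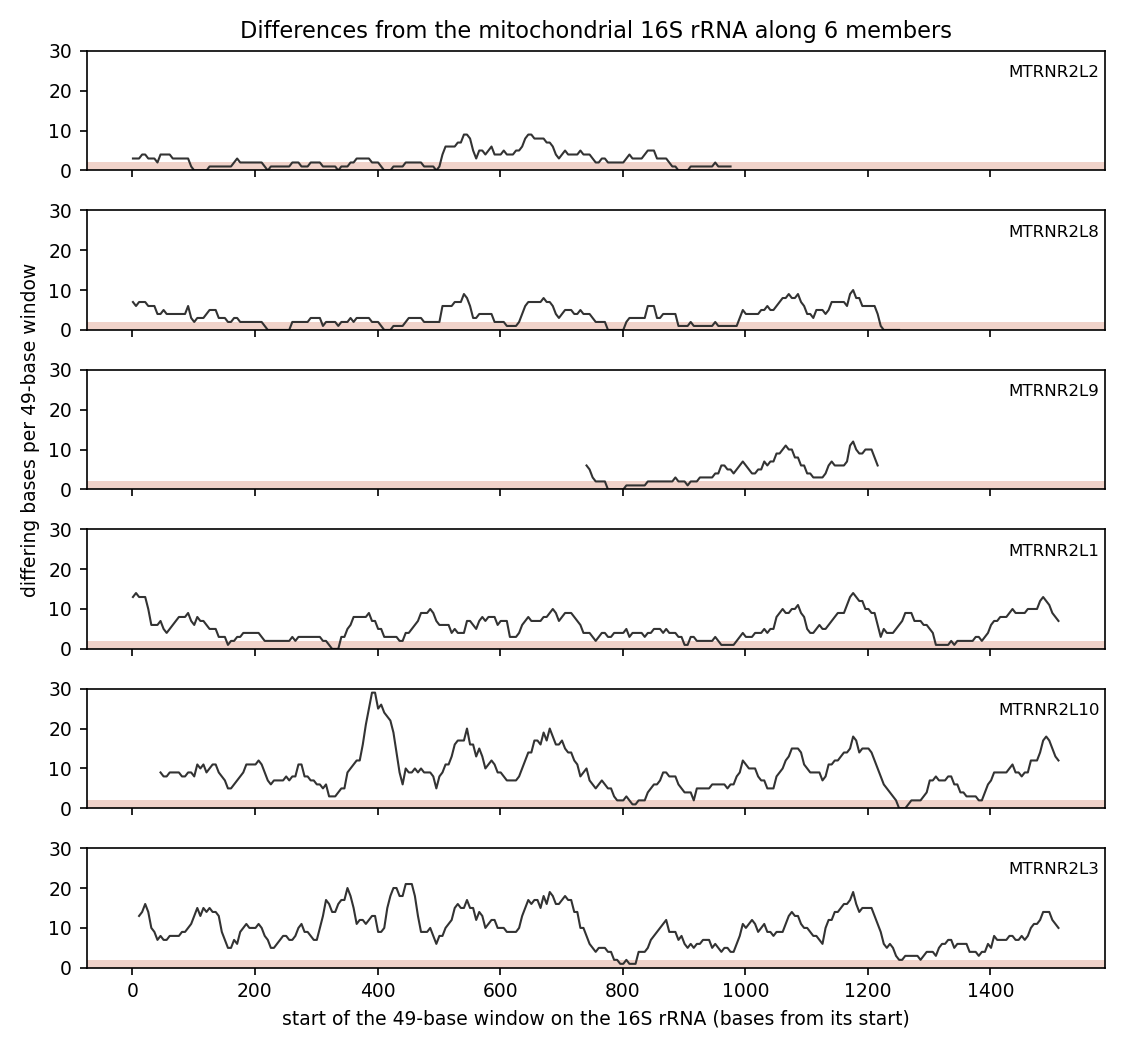
Number of bases that differ from the mitochondrial 16S rRNA in each 49-base window (vertical axis, gaps counted as differences) along the rRNA (horizontal axis, bases from its start) for 6 members, within the span each one copies; the shaded band marks 0 to 2 differences, the mismatch limit of the alignment. The median was 2 differences per window for MTRNR2L2, 3 for MTRNR2L8, 4 for MTRNR2L9, 5 for MTRNR2L1 and 9 for MTRNR2L10 and MTRNR2L3.

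The reverse view started from the rRNA. Of 1462 windows of the 16S rRNA without an unknown base, 884 (60.5%) had a nuclear place within 2 mismatches and 248 (17.0%) an exact one. All 1462 were placed exactly on the mitochondrial chromosome of GRCh37, so with that chromosome in the reference none of them has a nuclear copy as its only best place. If the mitochondrial chromosome is left out, 354 windows (24.2%) had 1 best place, 179 of them in a member of the family, and 530 (36.3%) had several equal best places, which a filter on unique reads removes. The 179 windows were shared among MTRNR2L2 (62), MTRNR2L1 (57), MTRNR2L8 (39), MTRNR2L9 (11) and MTRNR2L10 (10), and none had its 1 best place in MTRNR2L6, which had 1087 to 1241 reads. Per kilobase of transcript, the order of this count was looser against the levels (Spearman's rho 0.86). A further 114 windows had their best place on chromosome 3.

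How many of the family's reads began as mitochondrial RNA cannot be told apart from expression of the copies in these files. Genes were matched through the RefSeq identifiers of the lists, and no transcript of the 37 mitochondrial genes was found, the rRNA itself included. A mitochondrial gene without such an identifier could not be listed, so this absence does not show whether mitochondrial reads were aligned. Neither the paper nor the labels say whether the mitochondrial chromosome was part of the reference. The mitochondrial chromosome that UCSC distributes with hg19 is another version of the sequence than the one placed here, so the window counts may not be those of the authors' alignment. The mitochondrial sequence of these cells was not used here either. The copies have sequence of their own: between 57.2% (MTRNR2L2) and 97.6% (MTRNR2L1) of a member's windows occur exactly once in the assembly. With up to 2 mismatches allowed, the share of windows with a single place was smaller, 18.2% for MTRNR2L2, 32.7% for MTRNR2L8 and at most 78.2% (MTRNR2L5). How many reads came from such windows is not known.

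With DMSO set against the negative control, 8 of the 9 listed members were lower in DMSO, against 47.1% of all 24589 transcripts compared. The median log2 ratio of the 9 was -0.12, with 0.5 added to each RPKM, and that of all transcripts was 0.00. No member reached 2-fold, which 1.57% of all transcripts did. The largest shift among the well-covered members was in MTRNR2L9, from 879.9 to 775 RPKM (log2 ratio -0.18, 95% Clopper-Pearson interval -0.27 to -0.10), and the next in MTRNR2L6, from 183.7 to 163.5 (-0.17, -0.29 to -0.05). MTRNR2L1 (-0.09), MTRNR2L8 (-0.05) and MTRNR2L2 (-0.05) also had an interval under 0. The summed reads gave -0.06 (-0.08 to -0.04). The interval of MTRNR2L8 went from -0.12 to 0.01 when its smallest fitting read numbers were used, and then included 0.

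Intervals under 0 were thus found for 5 of 9 members, against 2.66% of all transcripts, and intervals above 0 for none, against 3.23%. Reads make the interval narrow, so the same was counted among the 1116 transcripts with at least 1000 reads in both samples, of which 10.8% lay under 0 and 14.1% above, and the 5 members of that depth all lay under 0 (4 with the smallest read numbers of MTRNR2L8). Apart from MTRNR2L8, all transcripts kept their smallest fitting reads, so intervals over all transcripts may be too wide and the shares too low. Members that can draw on the same RNA are not separate observations. MTRNR2L3 (-0.39), MTRNR2L4 (-0.87), MTRNR2L10 (-0.12) and MTRNR2L5 (0.01) had intervals that include 0.

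Between BDE-209 and DMSO, where both samples carry DMSO, 6 members were higher in BDE-209 and 3 lower, against 52.4% higher and 47.6% lower of all transcripts. MTRNR2L4 was the only member past 2-fold, a threshold that 1.74% of all 24608 transcripts passed in either direction. Its reads numbered 11 in BDE-209 and 3 in DMSO. The log2 ratio was 1.26 with 0.5 added and 1.91 without, and the interval of the latter went from -0.01 to 4.39. At 3 to 11 reads a change was therefore not detectable at this depth. MTRNR2L9 went from 775 to 871.1 RPKM (log2 ratio 0.17, interval 0.08 to 0.26), MTRNR2L2 from 5018 to 5296 (0.08, 0.05 to 0.10) and MTRNR2L8 from 3151 to 3308 (0.07, 0.04 to 0.10).

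These 3 members were the ones with an interval above 0, against 2.04% of all transcripts and 6.72% of the 1101 with at least 1000 reads in both samples. No member had an interval under 0, against 2.13% and 7.36%. MTRNR2L1 (-0.01), MTRNR2L6 (0.03), MTRNR2L10 (-0.15), MTRNR2L3 (0.21) and MTRNR2L5 (-0.56) had intervals on both sides of 0. For the summed reads the log2 ratio was 0.07 (0.05 to 0.09). The DMSO sample enters both comparisons, so a low value there lowers the first ratio and raises the second, and the 2 ratios are no independent sign of an effect.

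Between BDE-209 and the negative control, the sum of the family was nearly level, with a log2 ratio of 0.01 (interval -0.01 to 0.03) in reads. No member reached 2-fold, against 1.5% of all transcripts. MTRNR2L10 was lower, 81.64 against 98.9 RPKM (-0.28, -0.46 to -0.09), as were MTRNR2L6 (-0.14, -0.26 to -0.02) and MTRNR2L1 (-0.10, -0.18 to -0.03). MTRNR2L2 was higher by 0.03 (0.01 to 0.06), but its interval included 0 when the samples were scaled by median-of-ratios size factors. Intervals under 0 were seen for 2.9% of all transcripts and intervals above 0 for 3.16%. Of the 1100 transcripts with at least 1000 reads in both samples, 12.2% lay under 0 and 14.1% above, and of the 5 members of that depth 2 lay under 0 and 1 above. MTRNR2L8 (0.02), MTRNR2L9 (-0.01), MTRNR2L3 (-0.19), MTRNR2L4 (0.39) and MTRNR2L5 (-0.55) had intervals that include 0.

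**Figure D4:**
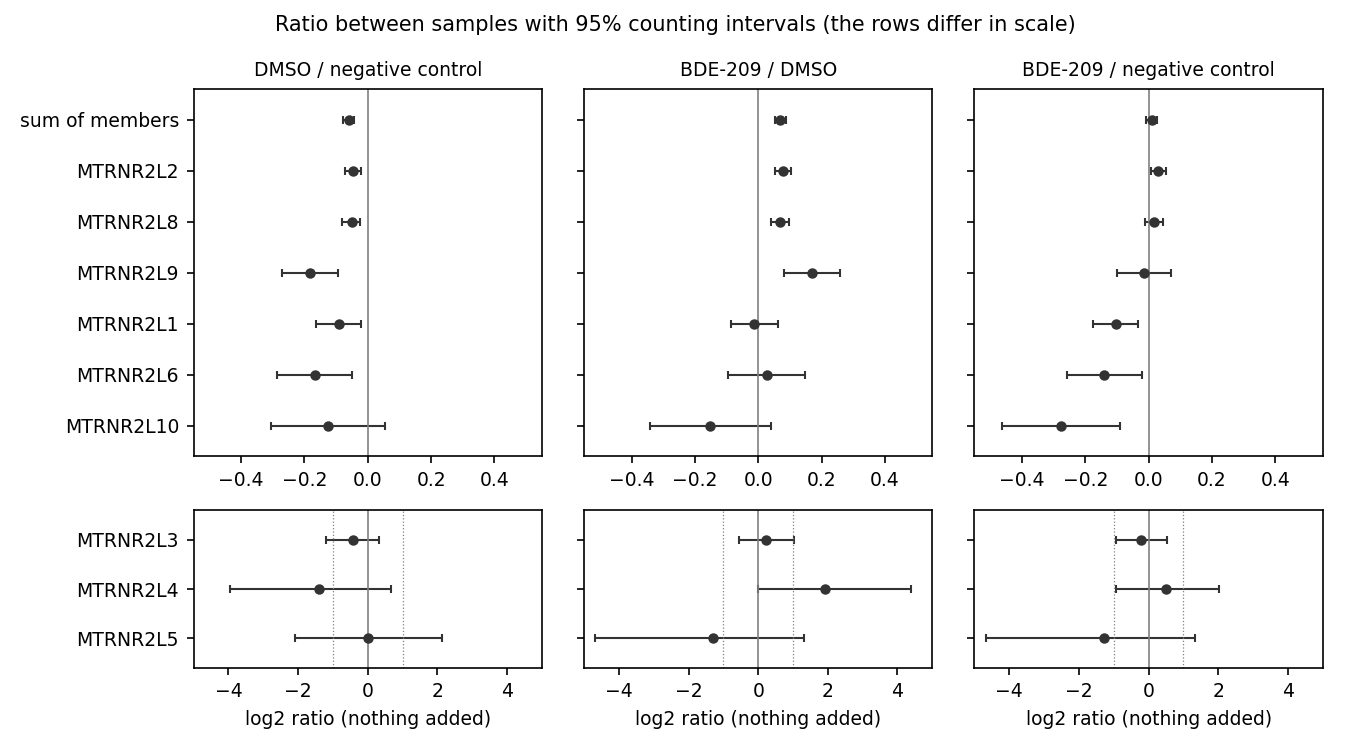
Log2 ratio between samples of reads divided by the recovered total of the sample, with nothing added, in 3 comparisons (columns). Each listed member and the sum of the members are shown. Bars are 95% Clopper-Pearson intervals, which cover counting error only. The upper row spans a narrow scale and shows all members with at least 428 reads within 0.3 of 0; the lower row spans a wide scale, its dotted lines mark 2-fold, and its bars all include 0.

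Shares of the family's reads were close between samples for the most abundant members. MTRNR2L2 gave 48.4% of the family's reads in the negative control, 48.8% in DMSO and 49.1% in BDE-209, and MTRNR2L8 gave 37.9%, 38.2% and 38.2%. Relative to the family's sum, the shift of MTRNR2L2 from the negative control to BDE-209 was 0.02 on the log2 scale (interval -0.003 to 0.046). The intervals of these shares take the family's sum as fixed, although each member is part of it. For MTRNR2L2, with 48.4% to 49.1% of the reads, the interval is therefore too wide and does not settle whether its share moved. In the same comparison MTRNR2L10 fell by 0.29 (-0.47 to -0.10), MTRNR2L6 by 0.15 (-0.27 to -0.03) and MTRNR2L1 by 0.11 (-0.19 to -0.04). The intervals of these last 3 members lay under 0. From the negative control to DMSO, MTRNR2L9 fell by 0.12 relative to the sum (-0.21 to -0.04). From DMSO to BDE-209, MTRNR2L9 was higher by 0.10 (0.01 to 0.19), MTRNR2L10 fell by 0.22 (-0.41 to -0.03) and MTRNR2L1 by 0.08 (-0.16 to -0.01).

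Genes around humanin and the mitochondrial rRNA were counted from gene lists, per transcript. For comparison with every list, the median log2 ratio of all transcripts was 0.004 for DMSO against the negative control. It was 0.005 for BDE-209 against DMSO and 0.008 for BDE-209 against the negative control. The shares of all transcripts past 2-fold in either direction were 1.57%, 1.74% and 1.5% in the same order. Of 26 transcripts from the receptors and binding partners of humanin, 1, with under 10 reads, was at least 2-fold lower in DMSO than in the negative control and none passed 2-fold in the other comparisons. Their medians were 0.13 for DMSO against the negative control and 0.01 for BDE-209 against DMSO. TRIM11, a ubiquitin ligase described to bind humanin, had 22.89, 21.41 and 21.11 RPKM in the negative control, DMSO and BDE-209, and BCL2L11, the pro-apoptotic protein Bim, had 12.71, 12.14 and 12.45 in the isoform NM_138621. Of 36 transcripts for mitochondrial transcription and RNA processing, none passed 2-fold in any comparison, with medians of -0.05, 0.08 and -0.01 for DMSO against the negative control, BDE-209 against DMSO and BDE-209 against the negative control. SLIRP, which stabilises mitochondrial mRNAs, had 130.2, 121.8 and 112.3 RPKM. HSD17B10, a subunit of mitochondrial RNase P, had 98.4, 96.85 and 98.81.

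Proteins of the large mitochondrial ribosomal subunit, which assemble on the 16S rRNA, gave 78 transcripts. In DMSO against the negative control 4 were at least 2-fold higher, in BDE-209 against DMSO 3 were at least 2-fold lower, and in BDE-209 against the negative control 2 were higher, none of them with 10 reads in either sample. Of all transcripts, 1.57%, 1.74% and 1.5% passed 2-fold in either direction in these comparisons. Medians of the large subunit were 0.00, -0.06 and -0.07. MRPL37 had 247.3, 246.7 and 237.1 RPKM and MRPL51 163.7, 163.7 and 161.5. None of 32 transcripts of the small subunit passed 2-fold, and MRPS21 (117.2, 101.5 and 127.3 RPKM) was lowest in DMSO. MRPS34 had 125.3, 117.3 and 119.9 RPKM. Medians of the small subunit were -0.09, 0.01 and -0.01.

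Of RNAs without a poly(A) tail, which the selection for poly(A) is meant to remove, RN7SL1 and RN7SL2 differed between samples by far more than the family. RN7SL2, an RNA of the signal recognition particle, had 1232 RPKM in the negative control, 48.26 in DMSO and 67.22 in BDE-209 (log2 ratio DMSO against the negative control -4.66, interval -5.04 to -4.33). RN7SL1 had 1212, 59.45 and 75.09 RPKM (-4.34, -4.68 to -4.03). Of 6 listed RNAs of this kind, 2 were at least 2-fold lower in DMSO than in the negative control, RN7SL1 and RN7SL2. The same 2 were lower in BDE-209 than in the negative control. By this threshold 1 was higher in DMSO than in the negative control and 1 was lower in BDE-209 than in DMSO. Neither of these last calls had 10 reads in either sample. Medians of the 6 RNAs were 0.01 for DMSO against the negative control and 0.22 for BDE-209 against DMSO. For BDE-209 against the negative control the median was -0.16. Scaling all values to the coding transcripts, which include the members and leave these RNAs out, kept the family at -0.06 for DMSO against the negative control. The scaling factors were 1.004 in the negative control and 1.003 in DMSO, so this scaling could hardly move the ratio. Whether the selection step had a part in the family's ratios was not tested.

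As a check of the cell line, 7 of 8 markers of HEK293 cells had a value in every sample, with NEFM at 49.85 to 54.09 RPKM in its higher isoform, and no transcript of PAX2 was listed. Of 5 markers of blood, endothelial, liver and fibroblast cells, 4 also had a value in every sample, and PTPRC was at 0. The 5 summed to 5.554 to 5.943 RPKM, against 507.0 to 557.9 for the HEK293 markers. VIM alone gave 261.0 to 299.1 RPKM of the HEK293 sum, in which the isoforms of NEFM and of KRT18 were added together. Some HEK293 markers were low as well, such as LHX1 at 0.9142 to 1.433 RPKM.

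Other transcripts followed the family's course through the 3 samples as closely. Among 8733 transcripts with at least 100 reads in every sample, the nearest in log2 course were EARS2 (NM_001083614, 21.07, 20.13 and 21.23 RPKM), AP1AR, PSMD13, GPR180 and SMO, at Euclidean distances from 0.00115 to 0.0035. With 3 samples such a likeness is common, and 1012 transcripts (11.6%) lay within 0.05 of the family.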

How the data were processed

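PolyA-enriched RNA of 3 cultures was sequenced by the authors as single-end reads, aligned to hg19 with SOAPaligner 2.21 (at most 2 mismatches) and reduced to unique reads. The deposited RPKM values, made by the authors, are given per RefSeq transcript to 6 significant digits, and transcripts without a read are left out, here set to 0. The counting tool, the RefSeq release and the treatment of isoforms are not given in the sources used here. Totals behind the values were recovered as the numbers that turn values of equal, low reads into whole transcript lengths (cosine score 0.547, next best 0.181, 275 transcripts), and reads as the smallest whole numbers that fit. They are lower bounds, and for MTRNR2L8 the multiple nearest to its locus was taken. On a transcript of 1 kb, 1 RPKM is 4.84 reads in the negative control, 4.78 in DMSO and 4.68 in BDE-209. Recovered lengths equalled the GENCODE exon for MTRNR2L1, MTRNR2L3 and MTRNR2L10 (1555, 1383 and 1121 bases) and were shorter for MTRNR2L6 (1395 against 1447).

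Loci were found with blastn 2.17.0 (E-value 1e-20) from the 16S rRNA of GRCh37, between the RefSeq neighbours of each gene (GRCh38.p14, used for names and order only). Windows were placed by an exhaustive search with Python 3.11.15, numpy 2.4.6 and numba 0.67.0. Intervals came from scipy 1.17.1, alignments from biopython 1.88. RefSeq symbols matched 24432 of 25443 transcripts (96.0%). Log2 ratios had 0.5 added to each RPKM unless stated. The intervals of ratios (Clopper-Pearson) and levels (exact Poisson) are at 95% and cover counting error only. NOISeq, the authors' test, draws simulated samples and was not used, but its 2-fold threshold was kept. Named were all 10 members, the 2 transcripts of highest mean RPKM of each list with any past 2-fold at 10 or more reads, and the 5 transcripts nearest in course. Members and lists were chosen with earlier results of these data known. Alternatives covered the addition, the scaling, the fold, a minimum RPKM and the members summed. The background at 1000 reads, the smallest reads of MTRNR2L8 and the calls by interval under other scalings were chosen after seeing the data.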

Additional observations from a re-analysis of the deposited data

How the results depend on the processing

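With 1 sample per condition, no replicate could be left out and no paired analysis was possible because each condition has only 1 sample. All 135 member ratios under other additions and scalings moved by no more than 0.5 times the width of their counting interval, as did 13 of 15 family ratios. Scaling changed calls by interval only between BDE-209 and the negative control, where 0 members lay above 0 with median-of-ratios size factors and 2 (MTRNR2L2 and MTRNR2L8) with scaling to the coding total. Without MTRNR2L2 the family's log2 ratio was -0.084 for DMSO against the negative control and -0.01 for BDE-209 against the negative control, since the other members then weigh more. With 1 added to each RPKM, no member passed 2-fold between BDE-209 and DMSO (0), and at 1.5-fold 1 did between DMSO and the negative control. Over all transcripts, the numbers past the fold for DMSO against the negative control, BDE-209 against DMSO and BDE-209 against the negative control (385, 427 and 370) became 1787, 1784 and 1827 at 1.5-fold and 174, 202 and 193 with 1 added. In the lists they became 15, 13 and 10 at 1.5-fold (from 8, 4 and 4), and 5 in the first comparison with at least 1 RPKM. Against coding transcripts only, the family's share of RPKM was 1.982% in the negative control, 1.898% in DMSO and 2.021% in BDE-209. Depth limits MTRNR2L3, MTRNR2L4, MTRNR2L5 and MTRNR2L7, whose reads number 37 or fewer.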
